A study of Mus musculus with 18 samples.

Results

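The genes described here belong to the class I antigen presentation machinery of mouse B cells: the classical heavy chains H2-K1 and H2-D1, the H2-Q (Qa region) heavy chain genes H2-Q4, H2-Q5, H2-Q6 and H2-Q7, the light chain B2m, the peptide transporter subunit Tap1, the peptide loading factor Tapbp (tapasin) and the transactivator Nlrc5. They were chosen by gene symbol, which was matched to the Entrez number of each row of the count tables, and 9 of the 10 genes were analysed out of 28096 listed. H2-Q4 was not analysed here. RefSeq lists H2-Q5 as a transcribed pseudogene, so that where it is counted below among the heavy chains the word stands for the gene family and not for a protein. The group was put together with earlier results of these data in view, in which H2-Q6 stood out between genotypes after anti-IgM. That contrast is therefore given as a description, with no test.

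The data were 18 RNASeq libraries of B cells isolated from the spleens of C57BL/6 N mice at least 8 weeks old, 3 for each combination of genotype and condition. WT cells were compared with Ubqln1-/- cells, which lacked exon 2 of the ubiquitin receptor gene Ubqln1 from the germline, in every cell. Cells of each genotype were kept without a stimulus (resting) or were given anti-IgM F(ab)2 at 10 μg/mL, which crosslinks the B cell receptor, or LPS of E. coli K12 at 20 μg/mL, a ligand of TLR4, for 4 hr. The wells of an experiment were pooled before RNA was purified, and the 3 libraries of a group stand for 3 independent experiments. The labels do not say whether conditions shared animals.

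A class I molecule is a heavy chain paired with beta-2 microglobulin, the product of B2m, and a short peptide that is mostly cut by the proteasome, moved into the endoplasmic reticulum by the TAP1 and TAP2 transporter and placed in the groove with the help of tapasin. H2-K1 and H2-D1 present peptides on nearly all nucleated cells, whereas the Qa region genes encode less polymorphic molecules, among them the Qa-2 antigens, to which H2-Q7 contributes. NLRC5 is drawn to the SXY module of class I promoters, beside which an NF-kB site and an interferon response element lie, and promotes their transcription together with that of B2m and Tap1. B cells carry these molecules at rest.

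The heavy chain genes are close copies of one another, which limits what a 50 base read can tell apart. H2-K1 (Entrez 14972) lies at chr17:33996012-34000619, H2-D1 (14964) at chr17:35263094-35267497, H2-Q5 (15016) at chr17:35394099-35395630, H2-Q6 (110557) at chr17:35424850-35430055 and H2-Q7 (15018) at chr17:35439140-35443773 of GRCm38.p6. Tapbp (21356) at chr17:33919478-33929290 and Tap1 (21354) at chr17:34187556-34197225 share this chromosome, while B2m (12010) is at chr2:122147687-122153082 and Nlrc5 (434341) at chr8:94434335-94527272. In the GENCODE M21 transcripts, 91 bases of exon 4, which encodes the membrane-proximal domain of the heavy chain, were identical in 4 coding sequences. The run is shown because a read from it could belong to H2-K1, H2-D1, H2-Q6 or H2-Q7. In H2-K1 it is at chr17:33997343-33997433 on the minus strand.
Exon 4 run of H2-K1, H2-D1, H2-Q6 and H2-Q7: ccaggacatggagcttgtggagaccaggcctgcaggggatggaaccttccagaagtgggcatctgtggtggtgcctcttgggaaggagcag

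By contrast, the 50 base stretch of exon 3 that varied most among the same 4 coding sequences had 17 positions at which at least 1 gene differed, shown in capitals. Exon 3 encodes one of the domains that form the peptide groove. The stretch is at chr17:33999321-33999370 on the minus strand in H2-K1 and, on the plus strand, at chr17:35264015-35264064 in H2-D1, chr17:35425747-35425796 in H2-Q6 and chr17:35440085-35440134 in H2-Q7. H2-K1 and H2-D1 differed here at 12 bases, and H2-Q6 and H2-Q7 at 5.
H2-K1: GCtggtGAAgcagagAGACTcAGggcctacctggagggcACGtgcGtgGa
H2-D1: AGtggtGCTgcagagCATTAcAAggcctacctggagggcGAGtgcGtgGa
H2-Q6: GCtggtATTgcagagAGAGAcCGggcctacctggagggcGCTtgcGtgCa
H2-Q7: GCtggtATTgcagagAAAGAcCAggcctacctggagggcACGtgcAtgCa

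Over all 50 base stretches of each gene's transcripts, the share also found in another gene was 6.87% for H2-K1, 13.9% for H2-D1, 40.1% for H2-Q5, 35.0% for H2-Q6 and 34.9% for H2-Q7. It was 0% for B2m and Nlrc5, 6.27% for Tap1 and 22.4% for Tapbp. Of the stretches of H2-Q5, 26.4% were also in H2-Q7, and of those of H2-Q6, 13.9% were. The count tables also held rows that repeated one another. The rows of H2-Q7 and H2-Q9 held the same count in 18 of 18 libraries, and those of H2-Q5 and H2-Q8 differed by at most 4 counts. A value given for H2-Q7 is therefore equally one for H2-Q9, and a value for H2-Q5 one for H2-Q8. Rows with no RefSeq symbol also ran nearly parallel to genes of the group over the 18 libraries. One held 0.411 times the counts of H2-K1 (SD of the log2 ratio 0.024) and one 1.99 times those of H2-Q6 (SD 0.028). Rows of this kind held 0.375 and 0.447 times the counts of H2-D1, 0.500 times those of H2-Q7 and 0.206 times those of Tapbp. How reads that match several copies were assigned is not given in the sources used here, and the values of the 5 heavy chains and of Tapbp are uncertain as values of single genes.

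**Figure D1:**
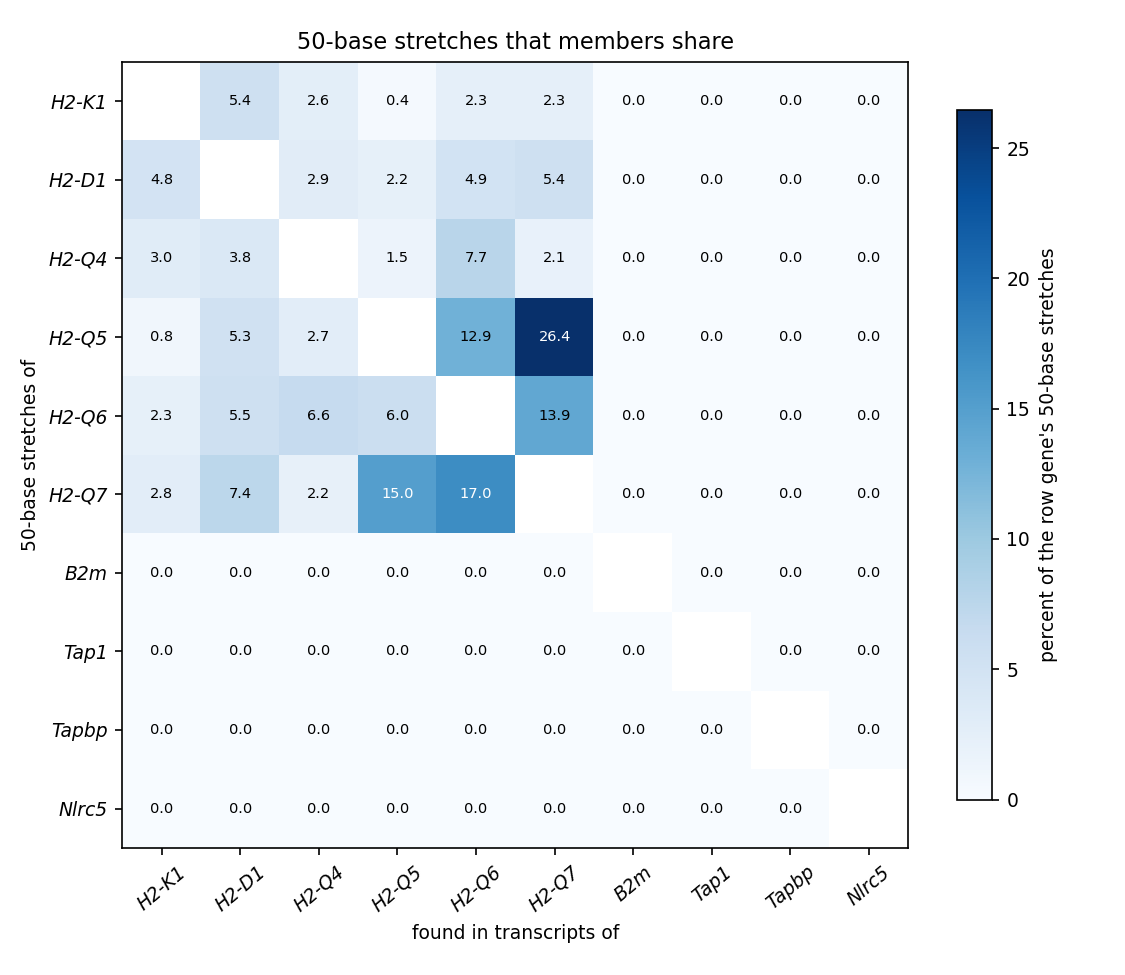
Share, in percent, of the 50 base stretches of each gene (rows) that are also present in transcripts of another gene of the group (columns), from the GENCODE M21 transcripts. The 6 heavy chain genes share stretches with one another, most of all H2-Q5 with H2-Q7 (26.4%), and share none with B2m, Tap1, Tapbp or Nlrc5.

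The promoters are shown because they hold letters of the sites named above, and because the heavy chains all fell after anti-IgM in what follows. RefSeq windows of 300 bases around the start site (250 before, 50 after, GRCm38.p6) were at hand for 8 of the 10 genes, not for H2-Q5 or Nlrc5. Capitals mark, from left to right in the heavy chains, an NF-kB motif (the 10 letters of the first run of capitals), the interferon response core GAANNGAAA (read here on the opposite strand), the TGACG core of the X2 box and CCAAT or its reverse ATTGG, all searched on both strands. In B2m the first run is a longer form of the response core, which begins with GAAA in place of GAA. Matches of the 2 forms were counted separately, and of the 2 starts listed for H2-K1 the one nearest the coding sequence was used. The stretches are at chr17:34000334-34000466 on the minus strand for H2-K1 and, on the plus strand, at chr17:35262915-35263051 for H2-D1, chr17:35424669-35424805 for H2-Q6, chr17:35439014-35439149 for H2-Q7 and chr2:122147540-122147644 for B2m.
H2-K1: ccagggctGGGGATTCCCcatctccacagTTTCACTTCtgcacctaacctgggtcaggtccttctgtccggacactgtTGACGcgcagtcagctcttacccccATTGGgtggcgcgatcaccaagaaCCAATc
H2-D1: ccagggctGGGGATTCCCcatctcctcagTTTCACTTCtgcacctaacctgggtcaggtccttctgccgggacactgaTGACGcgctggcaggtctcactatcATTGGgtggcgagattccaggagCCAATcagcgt
H2-Q6: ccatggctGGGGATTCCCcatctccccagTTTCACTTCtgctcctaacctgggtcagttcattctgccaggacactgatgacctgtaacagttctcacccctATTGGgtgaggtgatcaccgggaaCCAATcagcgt
H2-Q7: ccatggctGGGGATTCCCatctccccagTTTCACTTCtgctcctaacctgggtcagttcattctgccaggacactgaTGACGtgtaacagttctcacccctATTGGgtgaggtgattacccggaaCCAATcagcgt
B2m: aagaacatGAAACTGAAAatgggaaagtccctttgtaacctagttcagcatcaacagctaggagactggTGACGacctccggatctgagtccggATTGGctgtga

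The NF-kB motif was present in the windows of H2-K1, H2-D1, H2-Q6 and H2-Q7, and in 0.107% of the 32851 promoter windows of the table. GAANNGAAA was present in 7.52% of all windows, the longer form in 3.44%, TGACG in 20.8% and CCAAT in 37.4%. TGACG was found in the windows of H2-K1, H2-D1, H2-Q4, H2-Q7, B2m and Tap1 and not in that of H2-Q6. In the Tap1 and Tapbp windows neither the NF-kB motif nor either form of the response core was found. These matches describe letters in a window and not the binding of a factor.

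The libraries held between 15368941 and 41072854 counts (median 23257531), of which the group took between 0.404% and 0.688%. All 9 genes passed the filter on low counts and had at least 609 counts in every library. Ubqln1 was between 62.3 and 92.0 RPKM in WT cells and between 24.8 and 34.8 RPKM in Ubqln1-/- cells, without overlap. This row covers the whole gene and not the deleted exon alone. The 10 B cell markers summed to 5087 to 6067 RPKM in resting WT cells, 2479 to 3316 RPKM after anti-IgM and 4256 to 5215 RPKM after LPS. Of the 8 T cell markers, all but Lck (13.4 to 96.6 RPKM) were under 1 RPKM in every library, as were 4 of the 5 NK cell markers and 6 of the 11 myeloid and dendritic cell markers. Of the 5 erythroid markers listed, 3 were. The remaining NK cell marker was Prf1 (0.786 to 2.06 RPKM). The remaining myeloid and dendritic cell markers were Zbtb46 (1.23 to 12.6 RPKM), Adgre1 (1.44 to 12.2), Flt3 (1.66 to 6.76), Lyz2 (0.978 to 6.46) and Itgam (0.185 to 1.28). In bulk RNA, fewer cells of a type and less RNA per cell cannot be told apart.

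In resting WT cells the light chain stood above the heavy chains. B2m reached 1658 ± 87.6 RPKM (counts scaled to gene width and to the TMM-adjusted library size, mean ± SD, n = 3), H2-K1 1115 ± 55.5 RPKM and H2-D1 794 ± 33.6 RPKM. H2-Q6 followed at 231 ± 3.04 RPKM, then Tapbp at 124 ± 5.42, Tap1 at 104 ± 2.85, H2-Q7 at 72.5 ± 4.30, H2-Q5 at 43.8 ± 2.17 and Nlrc5 at 10.24 ± 1.06 RPKM. No gene in this order overlapped its neighbour in any of the 3 resting WT libraries. The first 4 places and the last place were held by the same genes in all 6 groups, and the order among Tapbp, Tap1 and H2-Q7 changed with condition. After anti-IgM in WT cells Tap1 (45.04 ± 4.63 RPKM) and H2-Q7 (38.8 ± 2.14 RPKM) overlapped, and after LPS H2-Q7 (94.5 ± 4.42 RPKM) and Tap1 (87.5 ± 9.96 RPKM) did.

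**Figure D2:**
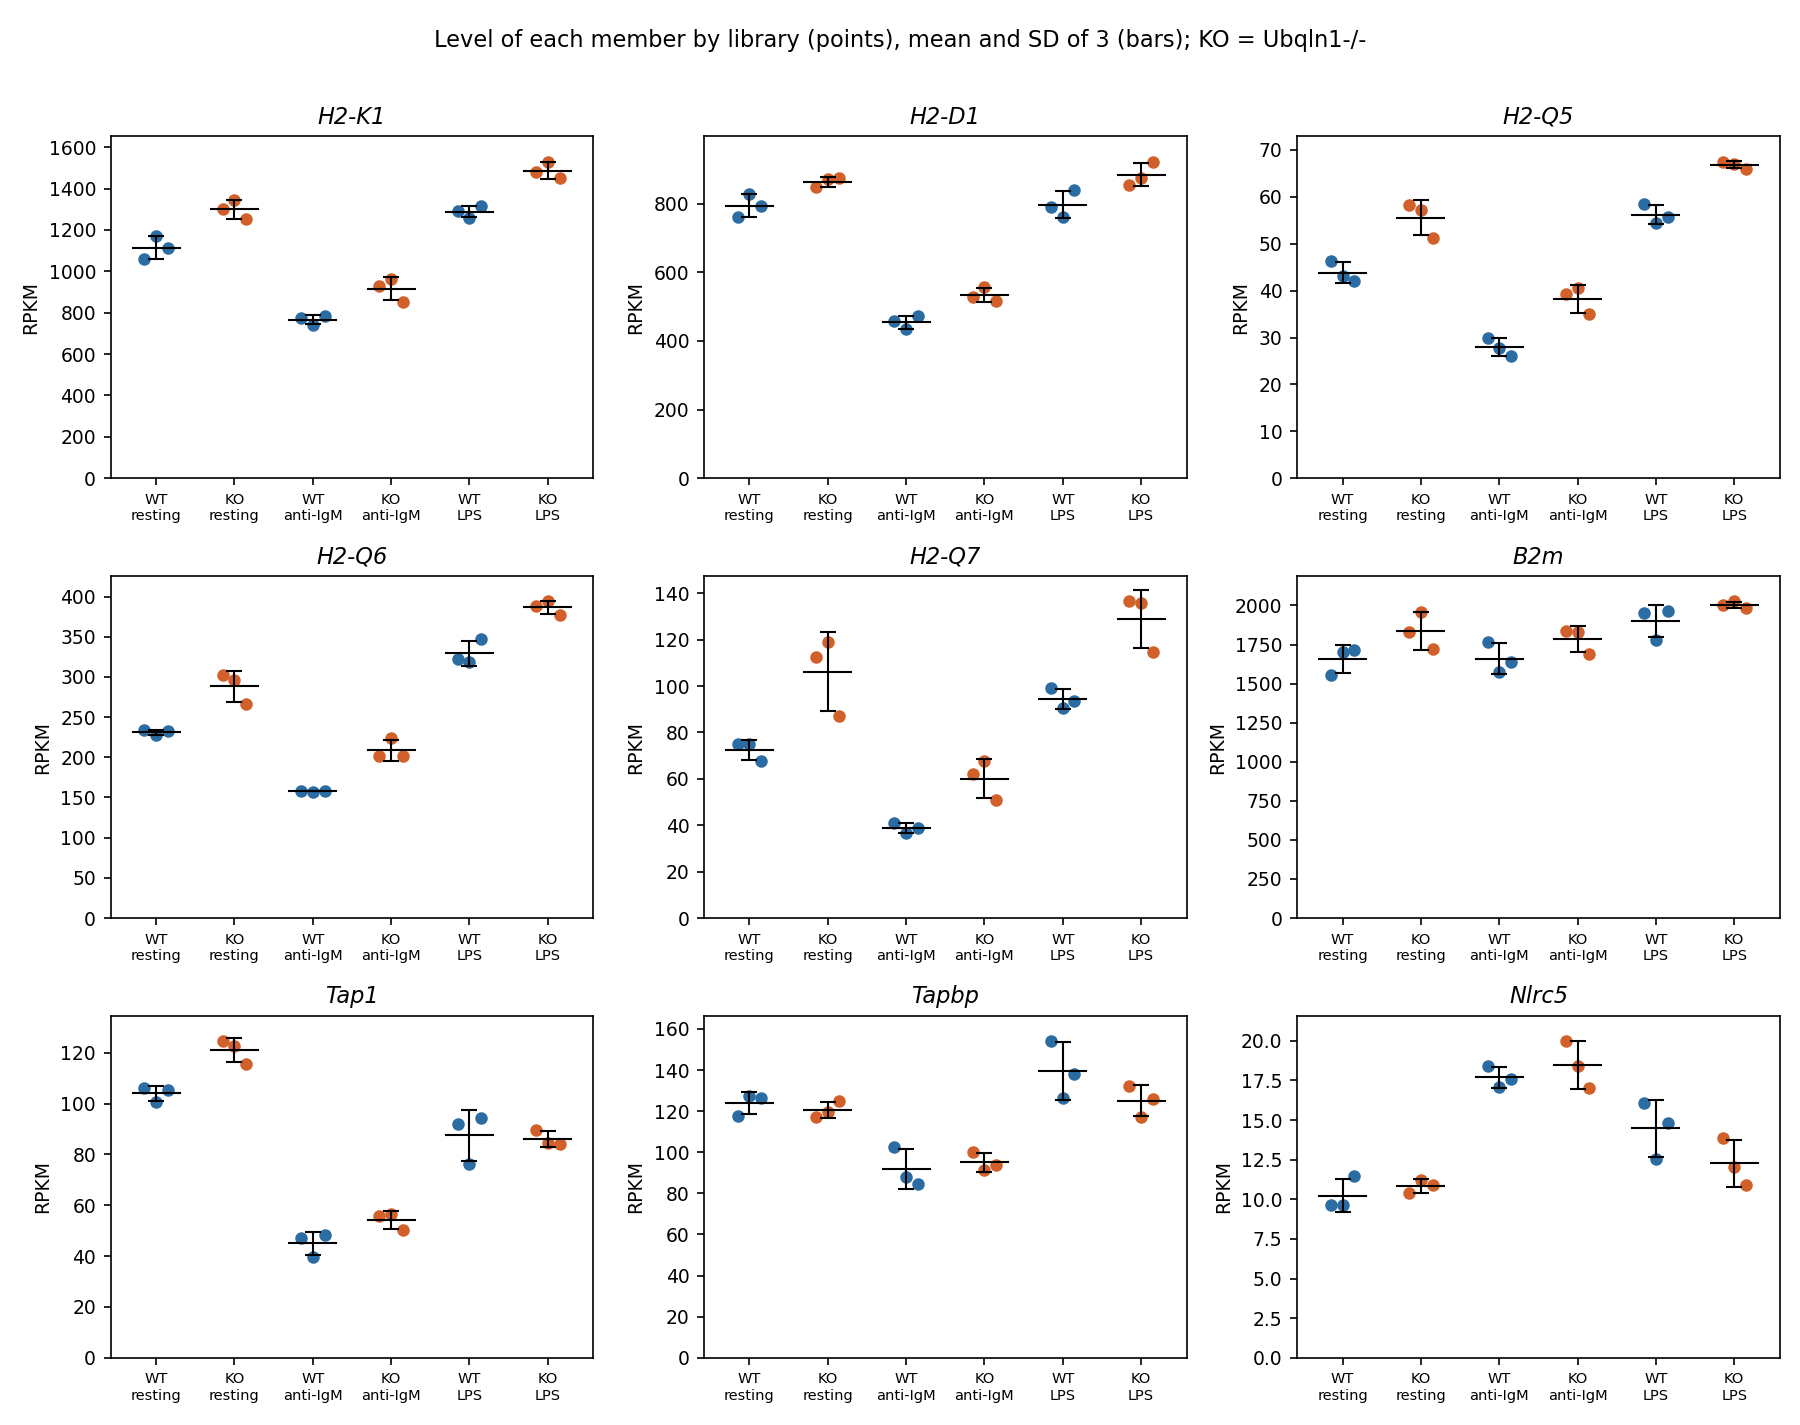
Level of each of the 9 genes in RPKM (vertical axis, from 0) in the 6 groups (horizontal axis). Points are libraries (WT blue, Ubqln1-/- orange), and bars give the mean and SD of 3. In both genotypes the anti-IgM points sit below the resting points for the 5 heavy chains, Tap1 and Tapbp, overlap them for B2m and sit above them for Nlrc5.

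To see how crosslinking of the B cell receptor affected these genes, anti-IgM was compared with rest. In WT cells 7 of the 9 genes fell, 1 rose and B2m did not pass the test, at an edgeR adjusted p under 0.05. Among all 14161 genes tested, 32.2% fell and 32.4% rose in this comparison. The median log2 fold change of the 9 genes was -0.55, beside -0.0096 over all genes tested. The summed B cell markers were also lower after anti-IgM, as given above. The summed T cell markers, nearly all of it Lck, went from 20.3 to 26.2 RPKM at rest to 53.3 to 92.1 RPKM, and the 5 plasma cell markers from 241 to 362 RPKM to 571 to 678 RPKM. Over all libraries, Irf4 ran from 77.7 to 421 RPKM, Jchain from 35.1 to 186 RPKM and Xbp1 from 37.9 to 77.5 RPKM. Sdc1 ran from 2.82 to 23.3 RPKM and Prdm1 from 2.54 to 6.20 RPKM. The part of these markers in the result was not tested.

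Of the classical heavy chains, H2-K1 was at 1061, 1172 and 1112 RPKM in the 3 resting WT libraries and at 773, 743 and 784 RPKM after anti-IgM. Every stimulated library was below every resting one, and the log2 fold change was -0.54 (SE 0.058, edgeR adjusted p = 4.11e-07). H2-D1 went from 762, 829 and 792 RPKM to 458, 434 and 472 RPKM, a log2 fold change of -0.80 (SE 0.057, edgeR adjusted p = 4.92e-09). The ratio of H2-K1 to H2-D1 was 1.40 ± 0.0106 at rest and 1.69 ± 0.0233 after anti-IgM, with no overlap (exact permutation test, two-sided, p = 0.1, the smallest that 3 against 3 libraries allow).

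Of the Qa region genes, H2-Q6 was at 234, 228 and 232 RPKM at rest and at 158, 157 and 158 RPKM after anti-IgM in WT cells. The libraries of each group were nearly level, and the fall of 0.55 on the log2 scale (SE 0.058, edgeR adjusted p = 3.58e-07) was close to that of H2-K1. The ratio of H2-Q6 to H2-K1 was 0.208 ± 0.0130 at rest and 0.206 ± 0.00514 after anti-IgM, with overlapping groups. H2-Q7 was at 75.0, 75.0 and 67.5 RPKM at rest and at 40.96, 36.7 and 38.7 RPKM after anti-IgM. Its log2 fold change was -0.90 (SE 0.11, edgeR adjusted p = 2.92e-06), and the ratio of H2-Q7 to H2-Q6 was lower in every stimulated than in every resting WT library (0.245 ± 0.0128 against 0.314 ± 0.0202, exact p = 0.1, the smallest possible). H2-Q5 changed by -0.65 (SE 0.070, edgeR adjusted p = 4.75e-07). Summed to 1 feature, H2-Q5, H2-Q6 and H2-Q7 changed by -0.66 (SE 0.070).

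B2m, the partner of all these chains, was at 1557, 1702 and 1715 RPKM at rest and at 1769, 1572 and 1639 RPKM after anti-IgM. The groups overlapped, and the log2 fold change was 0.0017 (SE 0.066, edgeR adjusted p = 0.985). The summed level of H2-K1 and H2-D1 relative to B2m went from 1.15 ± 0.0363 at rest to 0.737 ± 0.0363 after anti-IgM in WT cells, with no overlap (exact p = 0.1, the smallest possible).

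Of the peptide supply, Tap1 had the largest fold change of the 9 genes and went from 106, 101 and 105 RPKM to 47.3, 39.7 and 48.1 RPKM, a log2 fold change of -1.21 (SE 0.084, edgeR adjusted p = 4.09e-09). Tapbp fell by 0.43 on the log2 scale (SE 0.081, edgeR adjusted p = 0.000168). Nlrc5, the transactivator, moved the other way. It was at 9.61, 9.64 and 11.5 RPKM at rest and at 18.4, 17.1 and 17.6 RPKM after anti-IgM, with every stimulated library above every resting one and a log2 fold change of 0.79 (SE 0.099, edgeR adjusted p = 2.66e-06).

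Ubqln1-/- cells gave the same list of calls after anti-IgM, with 7 genes lower and 1 higher, where 32.4% and 32.9% of all genes were. The log2 fold changes were -0.51 for H2-K1, -0.70 for H2-D1, -0.54 for H2-Q5, -0.46 for H2-Q6, -0.82 for H2-Q7, -1.16 for Tap1, -0.34 for Tapbp and 0.77 for Nlrc5, with SEs from 0.057 to 0.11. B2m was again not called (-0.042, SE 0.066, edgeR adjusted p = 0.599).

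With LPS, the other stimulus, most of the group was higher than at rest. In WT cells 6 of the 9 genes rose (31.2% of all genes did) and 1 fell (30.1% of all genes did), while H2-D1 and Tapbp did not pass the test. The median log2 fold change of the group was 0.21, beside -0.010 over all genes tested. H2-Q6 rose from the resting levels above to 323, 318 and 347 RPKM, all above rest (log2 fold change 0.51, SE 0.058, edgeR adjusted p = 1.18e-06). H2-Q7 reached 99.3, 90.6 and 93.5 RPKM, above every resting library (0.38, SE 0.11, edgeR adjusted p = 0.00738), and H2-Q5 changed by 0.36 (SE 0.068, edgeR adjusted p = 0.000242).

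Of the classical chains, H2-K1 was at 1291, 1259 and 1314 RPKM after LPS, above every resting WT library, a difference of 0.21 on the log2 scale (SE 0.058, edgeR adjusted p = 0.00485). H2-D1 was at 791, 761 and 839 RPKM, which overlapped the resting levels (0.0051, SE 0.057, edgeR adjusted p = 0.945). The ratio of H2-Q6 to H2-K1 was 0.255 ± 0.0073 after LPS and higher than at rest in every WT library (exact p = 0.1, the smallest possible), as was that of H2-K1 to H2-D1, at 1.62 ± 0.0457. B2m rose by 0.20 (SE 0.066, edgeR adjusted p = 0.0171), a call that was lost on leaving out WT resting replicate 1 (edgeR adjusted p = 0.103), WT LPS replicate 1 (0.0574) or WT LPS replicate 3 (0.0588).

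Tap1 and Nlrc5 differed in direction after LPS as they had after anti-IgM. Tap1 was at 91.9, 76.1 and 94.5 RPKM in WT cells, below rest (-0.25, SE 0.083, edgeR adjusted p = 0.0150). Replicate 2 was the lowest of these, and without it the change was -0.16 (edgeR adjusted p = 0.0985), while leaving out resting replicate 1 or 3 gave adjusted p of 0.0507 and 0.0510. Nlrc5 was at 16.0, 12.5 and 14.8 RPKM, above every resting library (0.50, SE 0.099, edgeR adjusted p = 0.000355). Tapbp was at 154, 126 and 138 RPKM, of which replicate 2 lay within the resting range (0.17, SE 0.080, edgeR adjusted p = 0.0751). With the replicate number as a block Tapbp passed the test (0.17, edgeR adjusted p = 0.0361), as it did without LPS replicate 2 (0.24, edgeR adjusted p = 0.0233).

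In Ubqln1-/- cells 4 of the 9 genes rose after LPS, beside 30.6% of all genes, and 1 fell, beside 30.2%. These were H2-Q6 (0.42, SE 0.058), H2-Q7 (0.28, SE 0.11), H2-Q5 (0.27, SE 0.068) and H2-K1 (0.19, SE 0.058), and Tap1 as the one that fell (-0.49, SE 0.083). The call of H2-Q7 (edgeR adjusted p = 0.0381) was lost without Ubqln1-/- resting replicate 3, where the change was 0.16 (adjusted p = 0.213), and without LPS replicate 1 or 2 (adjusted p of 0.108 and 0.120). Nlrc5 was called in WT and not in Ubqln1-/- cells (0.18, SE 0.099, edgeR adjusted p = 0.133), though it was called there without Ubqln1-/- LPS replicate 3 (0.26, edgeR adjusted p = 0.0480). B2m, likewise not called in Ubqln1-/- cells, was called without Ubqln1-/- resting replicate 2 (0.18, edgeR adjusted p = 0.0419). The difference between these responses was itself tested, as Ubqln1-/- minus WT, and was -0.32 for Nlrc5 (SE 0.14, edgeR adjusted p = 1.000, unadjusted p = 0.0361). None of the 9 genes passed that test, and 0% of all genes did, while without WT LPS replicate 2 it called 10 of all genes. At an unadjusted p under 0.05 it gave 1 of the 9 genes and 220 of all genes, and limma and DESeq2 also called 0 of the 9.

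**Figure D3:**
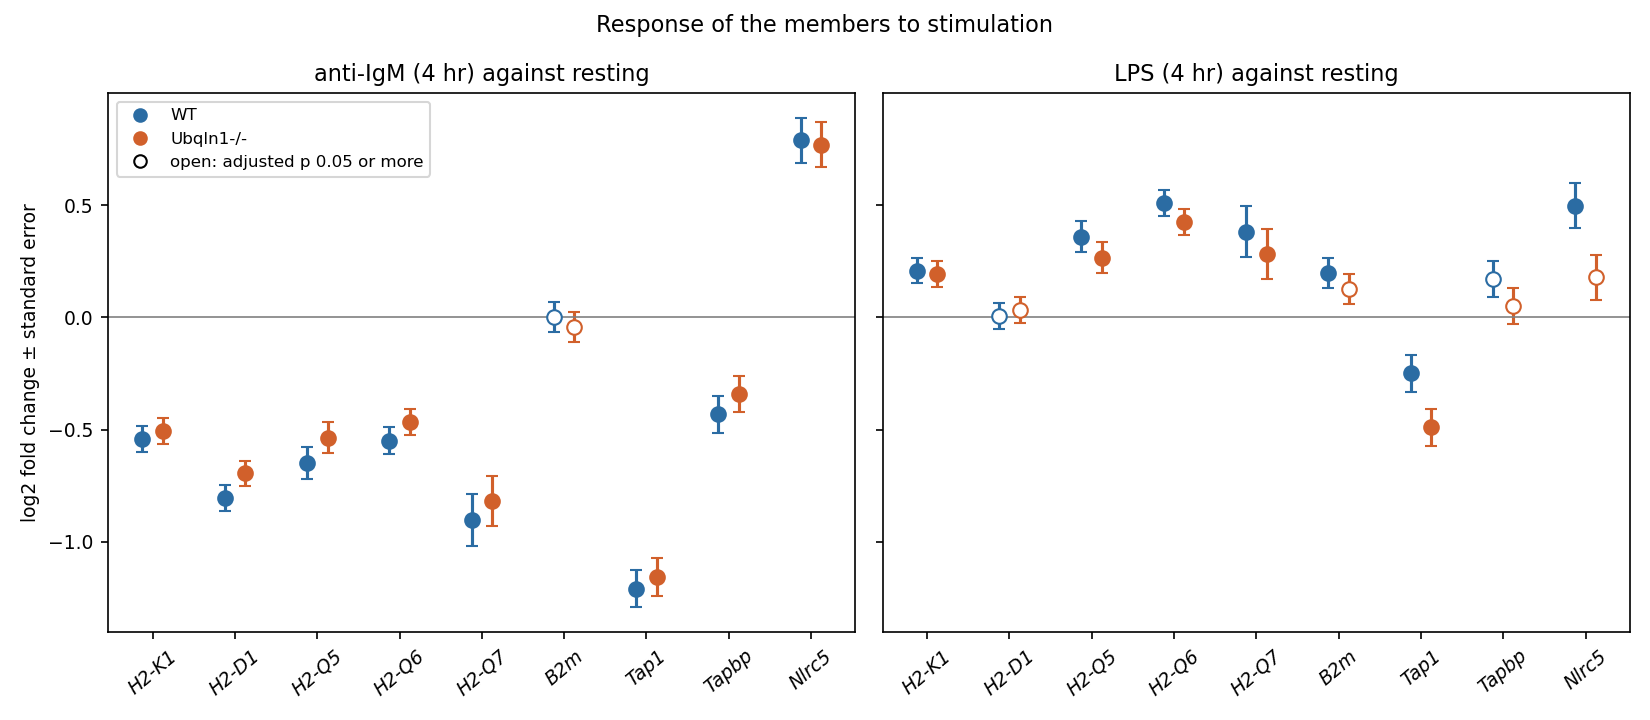
Log2 fold change with its standard error (vertical axis) for each gene (horizontal axis) after anti-IgM (left) and LPS (right), in WT (blue) and Ubqln1-/- cells (orange). Filled points passed an edgeR adjusted p of 0.05. The 5 heavy chains, Tap1 and Tapbp lie below 0 after anti-IgM in both genotypes, and after LPS Tap1 is the only gene called below 0.

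Compared directly in WT cells, 8 of the 9 genes were higher with LPS than with anti-IgM (17.4% of all genes were) and Nlrc5 was lower (15.0% of all genes were). The differences of the Qa region genes were 1.28 (SE 0.11) for H2-Q7, 1.06 (SE 0.058) for H2-Q6 and 1.01 (SE 0.070) for H2-Q5. Tap1 differed by 0.96 (SE 0.084), H2-D1 by 0.81 (SE 0.057), H2-K1 by 0.75 (SE 0.058), Tapbp by 0.60 (SE 0.081) and B2m by 0.19 (SE 0.066, edgeR adjusted p = 0.0325), and Nlrc5 by -0.29 (SE 0.098, edgeR adjusted p = 0.0299). The calls of B2m and Nlrc5 did not hold in every fit. B2m was lost without WT anti-IgM replicate 2 (edgeR adjusted p = 0.143) or 3 (0.115) or LPS replicate 1 (0.105) or 3 (0.106), and Nlrc5 without anti-IgM replicate 1 (0.0910) or 3 (0.0676) or LPS replicate 2 (0.144).

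In Ubqln1-/- cells 7 genes were higher with LPS (16.8% of all genes) and Nlrc5 was lower (14.5% of all genes). H2-Q7 differed by 1.10 (SE 0.11), H2-Q6 by 0.89 (SE 0.058) and Nlrc5 by -0.59 (SE 0.099, edgeR adjusted p = 0.000175). B2m differed by 0.17 (SE 0.066, edgeR adjusted p = 0.0650) and was called with the replicate number as a block (adjusted p = 0.0362).

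To ask whether loss of Ubqln1 affected these genes, Ubqln1-/- cells were compared with WT cells in each condition. At rest, H2-Q6 was at 303, 296 and 266 RPKM in Ubqln1-/- cells, above all 3 WT libraries (log2 difference 0.32, SE 0.058, edgeR adjusted p = 0.0657). H2-Q7 was at 112.5, 119 and 86.9 RPKM, also above WT (0.55, SE 0.11, edgeR adjusted p = 0.115), with replicate 3 the lowest. H2-Q5 was at 58.3, 57.1 and 51.3 RPKM against 46.3, 43.1 and 42.1 RPKM in WT cells (0.34, SE 0.069, edgeR adjusted p = 0.115).

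Of the classical genes at rest, H2-K1 was at 1301, 1344 and 1253 RPKM in Ubqln1-/- cells (0.22, SE 0.058, edgeR adjusted p = 0.449) and H2-D1 at 848, 871 and 874 RPKM (0.12, SE 0.057, adjusted p = 1.000). In all, 7 of the 9 genes were higher in every Ubqln1-/- than in every WT library, where 4.45% of all genes were. These were the 5 heavy chains, B2m (0.15, SE 0.066) and Tap1 (0.22, SE 0.083). The edgeR test, which had no replicate block, called none of them, and called 8 of all genes (0.0565%). At an unadjusted p under 0.05 the same test gave 7 of the 9 genes and 597 of all genes. With the replicate number as a block edgeR called H2-Q5 (0.34, edgeR adjusted p = 0.00334), H2-Q6 (0.32, adjusted p = 0.00905) and H2-Q7 (0.54, adjusted p = 0.00277). The block called 49 of all genes. Of the 9 genes limma with voom called 0, and DESeq2 called H2-K1, H2-Q5, H2-Q6 and H2-Q7. Without Ubqln1-/- resting replicate 3, edgeR called H2-Q6 (0.37) and H2-Q7 (0.68), both at an adjusted p of 0.0219. Over all alternatives the adjusted p ranged from 0.000192 to 0.606 for H2-Q6 and from 0.00277 to 0.651 for H2-Q7 at rest.

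With LPS, H2-Q6 was at 388, 394 and 377 RPKM in Ubqln1-/- cells, above WT (0.23, SE 0.057, edgeR adjusted p = 0.274). H2-Q7 was at 136.5, 136 and 115 RPKM (0.45, SE 0.11, edgeR adjusted p = 0.274) and H2-Q5 at 67.5, 67.0 and 66.0 RPKM (0.25, SE 0.068, edgeR adjusted p = 0.375). Again every Ubqln1-/- library was above every WT library for these genes, and for H2-K1 (0.21, SE 0.058), H2-D1 (0.15, SE 0.057) and B2m (0.078, SE 0.066), 6 of the 9 genes where 3.66% of all genes were. Tap1 (-0.022, SE 0.083), Tapbp (-0.16, SE 0.080) and Nlrc5 (-0.24, SE 0.098) overlapped.

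The edgeR test called 0 of the 9 genes with LPS and 6 of all genes (0.0424%), or 37 of all genes without WT LPS replicate 2. At an unadjusted p under 0.05 it gave 6 of the 9 genes and 557 of all genes, limma called 0 of the 9, and DESeq2 called H2-Q6 and H2-Q7. The replicate numbers paired the samples in this comparison, and with the replicate number as a block the test called H2-Q5 (0.25, edgeR adjusted p = 0.0208), H2-Q6 (0.23, adjusted p = 0.0486) and H2-Q7 (0.44, adjusted p = 0.00886). Over all alternatives the edgeR, limma or DESeq2 adjusted p ranged from 0.0208 to 1.000 for H2-Q5, from 0.0319 to 1.000 for H2-Q6 and from 0.00886 to 0.917 for H2-Q7.

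With anti-IgM, the contrast that had drawn attention to H2-Q6, the log2 difference was 0.40 for H2-Q6 (SE 0.058), 0.63 for H2-Q7 (SE 0.11) and 0.46 for H2-Q5 (SE 0.070). H2-Q6 was at 201, 224 and 201 RPKM in Ubqln1-/- cells, H2-Q7 at 62.1, 67.5 and 50.8 RPKM and H2-Q5 at 39.2, 40.7 and 34.9 RPKM, all above WT. H2-K1 (0.26, SE 0.058), H2-D1 (0.23, SE 0.057) and Tap1 (0.27, SE 0.083) were likewise above WT in every library, 6 of the 9 genes in all, where 6.32% of all genes were. The group was put together with this contrast in view, and H2-Q5, H2-Q6 and H2-Q7 share reads. The count beside the share of all genes is therefore a description, and no conclusion is drawn from it. B2m (0.10, SE 0.066), Tapbp (0.052, SE 0.081) and Nlrc5 (0.063, SE 0.097) overlapped. The difference between genotypes in the response to anti-IgM ranged over the 9 genes from -0.043 (B2m, SE 0.094) to 0.11 (H2-Q5, SE 0.098).

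Several facts stand beside the genotype differences. H2-Q5, H2-Q6 and H2-Q7 share reads and are not 3 separate observations, and summed to 1 feature they differed by 0.39 at rest (SE 0.070, edgeR adjusted p = 0.0540) and by 0.30 with LPS (SE 0.069, adjusted p = 0.226). Samples of 1 experiment may have supplied all 3 conditions, so the resting and LPS differences are not independent of the anti-IgM difference. Replicate 3 was the lowest Ubqln1-/- library in each condition for H2-K1, H2-Q5, H2-Q6 and H2-Q7. The 5 plasma cell markers summed to 241 to 362 RPKM in WT and 207 to 232 RPKM in Ubqln1-/- cells at rest, to 571 to 678 and 489 to 533 RPKM with anti-IgM, and to 412 to 486 and 379 to 405 RPKM with LPS, and their part in the result was not tested. Of these 5, Irf4 had the widest range over all libraries, 77.7 to 421 RPKM, a range that mixes conditions and genotypes. Single markers are not given here by genotype.

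**Figure D4:**
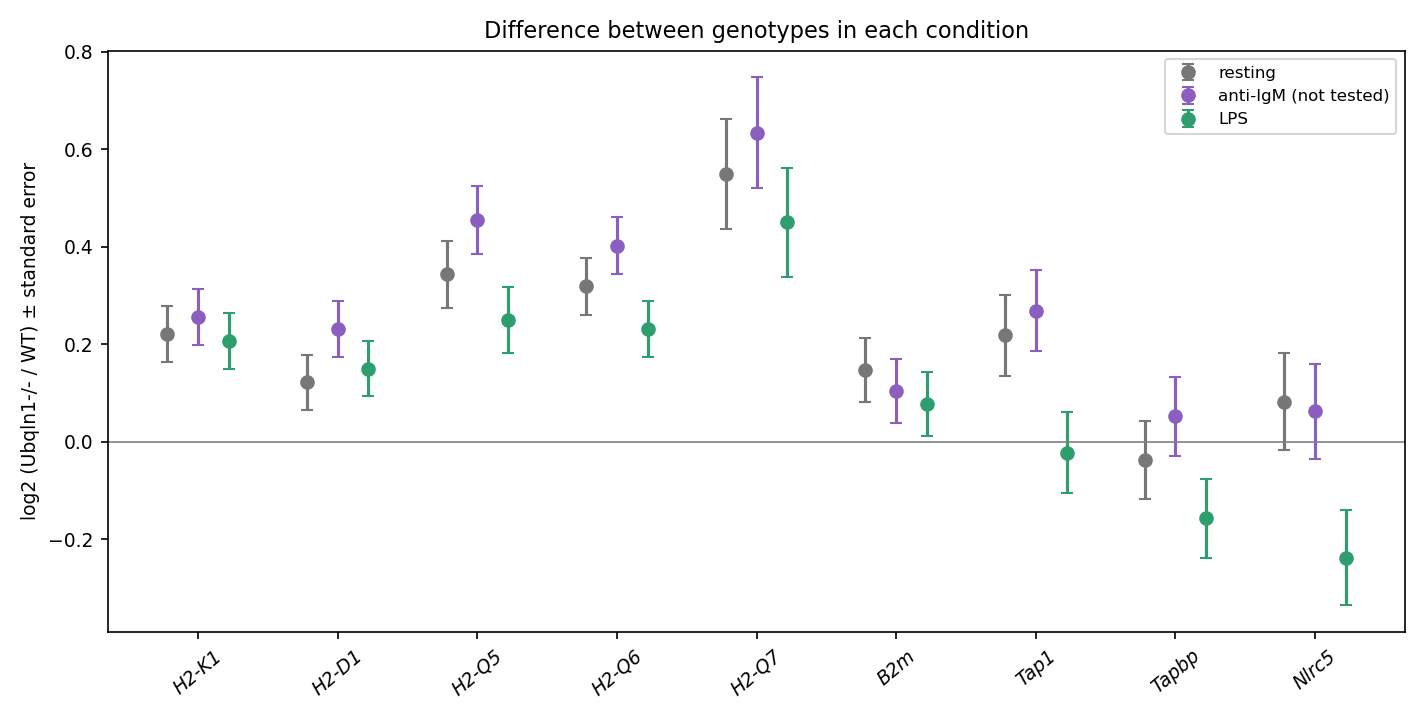
Log2 difference between Ubqln1-/- and WT cells with its standard error (vertical axis) for each gene (horizontal axis) in resting (grey), anti-IgM (purple) and LPS (green) cells. The 5 heavy chains lie above 0 in all 3 conditions, from 0.12 for H2-D1 at rest to 0.63 for H2-Q7 with anti-IgM. Tap1, Tapbp and Nlrc5 lie on both sides of 0.

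Within a library, heavy chains were also set against the light chain by genotype. The summed level of H2-K1 and H2-D1 over B2m was 1.18 ± 0.0529 in resting Ubqln1-/- and 1.15 ± 0.0363 in resting WT cells (exact p = 0.5). With LPS it was 1.18 ± 0.0141 against 1.10 ± 0.0345 (exact p = 0.1, the smallest possible). Over the 32 comparisons of ratios that were computed, the smallest Benjamini-Hochberg adjusted value of the exact permutation test was 0.178, and it applies to each ratio given above at p = 0.1.

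The genes around the group followed the stimuli in different ways. The lists were chosen with earlier results in view, and their counts stand beside 32.4% of all genes that rose and 32.2% that fell after anti-IgM in WT cells, and 31.2% and 30.1% after LPS. Of 30 other class I and class I-like heavy chains, 28 were listed and 13 passed the filter on low counts, and after anti-IgM in WT cells 12 of them fell and none rose, with a median log2 fold change of -1.08, beside -0.0096 over all genes tested. This list includes H2-Q8 and H2-Q9, which repeat H2-Q5 and H2-Q7. Fcgrt, the neonatal Fc receptor heavy chain, fell from 6.54 ± 1.36 to 0.535 ± 0.196 RPKM (-3.63, SE 0.26), Cd1d1, which presents lipids, from 7.34 ± 1.48 to 1.79 ± 0.223 RPKM (-2.03, SE 0.17) and H2-T24 by 1.48 (SE 0.32). With LPS 8 of the 13 fell and 3 rose. Mr1, which presents vitamin B metabolites, changed by -1.82 (SE 0.24), Fcgrt by -2.29 (SE 0.22) and Cd1d1 by -1.30 (SE 0.16), and the 3 that rose were H2-Q8, H2-Q9 and H2-Q2 (0.68, SE 0.14), named after their values were seen.

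The catalytic subunits of the immunoproteasome, of which Psmb8 and Psmb9 are encoded beside Tap1, fell. After anti-IgM in WT cells Psmb8 went from 166 ± 1.32 to 75.0 ± 10.97 RPKM (-1.15, SE 0.10), Psmb9 from 87.0 ± 4.89 to 35.4 ± 5.98 RPKM (-1.30, SE 0.12) and Psmb10 from 61.7 ± 3.34 to 31.2 ± 1.75 RPKM (-0.98, SE 0.081). The 3 standard subunits that they replace rose, Psmb5 by 0.67 (SE 0.10), Psmb6 by 0.41 (SE 0.072) and Psmb7 by 0.52 (SE 0.065). Of the 5 genes of the immunoproteasome and its PA28 activator, 3 fell and 1 rose after anti-IgM, and 3 fell and 2 rose after LPS. With LPS Psmb8 changed by -0.59 (SE 0.10) and Psmb9 by -0.47 (SE 0.11), and Psme2, a PA28 subunit, rose from 31.5 ± 2.98 to 80.0 ± 5.37 RPKM (1.34, SE 0.076). All 3 standard subunits rose with LPS, Psmb7 by 0.59 (SE 0.065), Psmb5 by 0.59 (SE 0.099) and Psmb6 by 0.42 (SE 0.071).

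Among the 6 genes of peptide trimming and loading, 5 rose and 1 fell after each stimulus in WT cells. The one that fell was Tap2, the partner of Tap1 (-0.85, SE 0.085 with anti-IgM and -0.51, SE 0.084 with LPS). Erap1, which trims peptides in the endoplasmic reticulum, rose from 34.5 ± 1.82 to 75.4 ± 6.84 RPKM with anti-IgM (1.13, SE 0.090) and by 0.89 (SE 0.090) with LPS, and the chaperones Canx (0.99, SE 0.085 and 0.82, SE 0.084) and Calr (0.91, SE 0.11 with anti-IgM) rose as well.

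Of the 17 genes on the list of transcription factors and cofactors for class I promoters, 4 rose and 7 fell after anti-IgM in WT cells (median log2 fold change -0.091). After LPS 9 rose and 2 fell (median 0.26). Rel, an NF-kB subunit, rose from 63.2 ± 11.3 to 197 ± 9.70 RPKM with anti-IgM (1.64, SE 0.13) and by 1.28 (SE 0.13) with LPS, and the subunits Nfkb1 (1.60, SE 0.099) and Nfkb2 (1.20, SE 0.076) rose with LPS. Irf2 fell with anti-IgM from 124 ± 7.90 to 46.8 ± 8.06 RPKM (-1.40, SE 0.10), as did Stat2 (-1.17, SE 0.11). Between genotypes none of the 44 genes on these 5 lists passed the test at rest, and with LPS Irf9 alone did. Irf9, the DNA-binding subunit of the interferon-activated complex ISGF3, named here after its value was seen, was at 39.8 ± 3.86 RPKM in Ubqln1-/- and 54.9 ± 5.77 RPKM in WT cells with LPS (-0.46, SE 0.078, edgeR adjusted p = 0.0439).

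**Figure D5:**
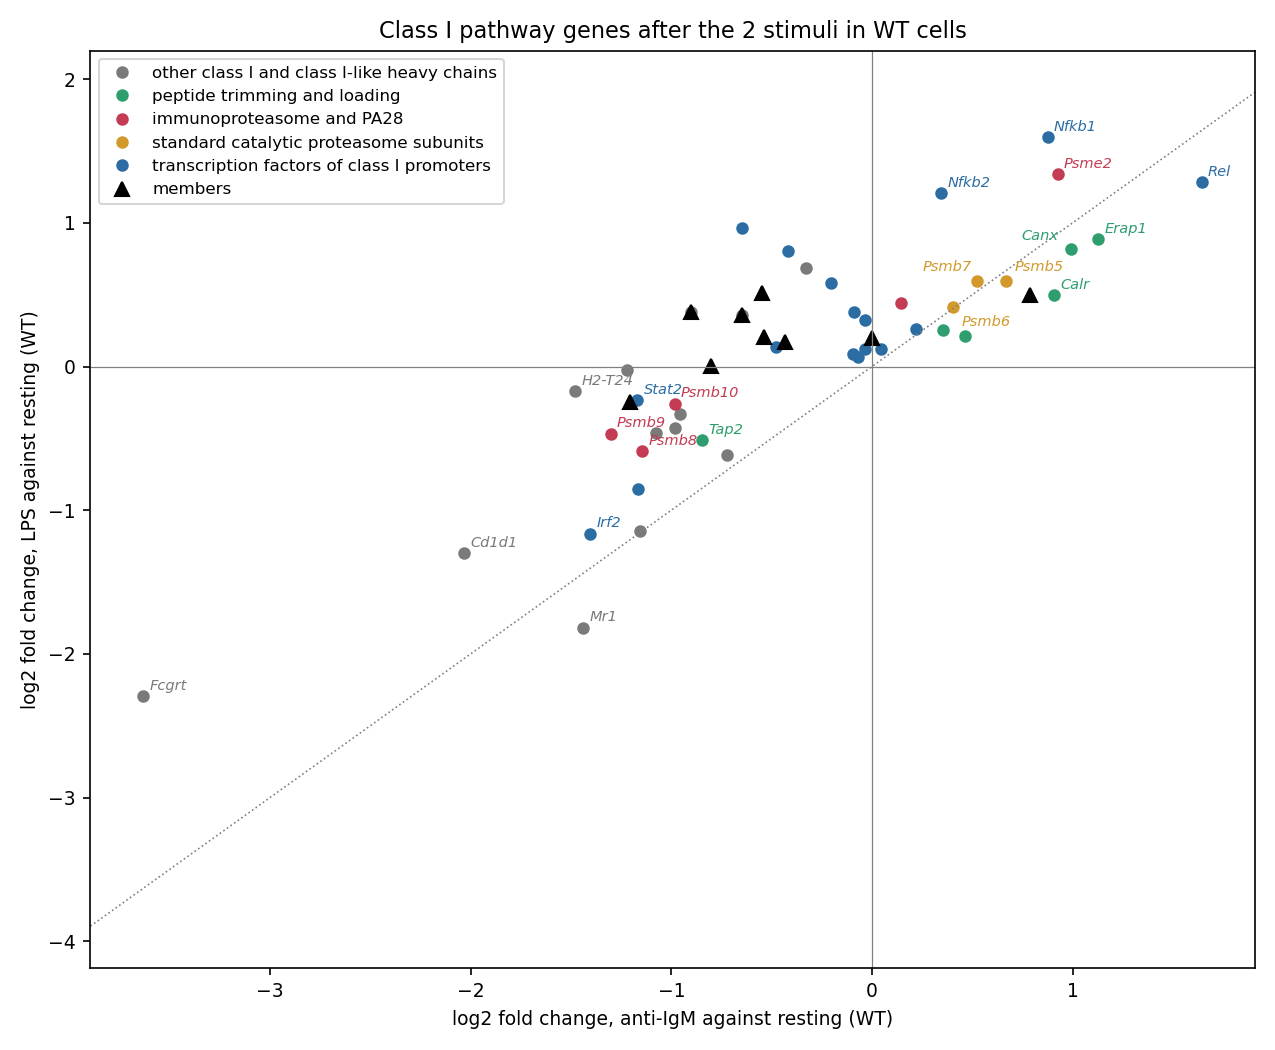
Log2 fold change in WT cells after anti-IgM (horizontal axis) and LPS (vertical axis) of the genes on 5 class I pathway lists (colored points) and of the 9 genes of the group (black triangles). The dotted line marks equal change. Most heavy chains lie above this line, the immunoproteasome subunits Psmb8, Psmb9 and Psmb10 lie below 0 on both axes and the standard subunits lie above 0 on both.

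Over the 18 libraries, the log2 levels (log2 CPM with a prior count of 2) of the 5 heavy chains had Pearson correlations between 0.88 (H2-D1 with H2-Q6) and 0.99 (H2-Q5 with H2-Q7), and these genes share reads. Nlrc5 ran opposite to Tap1 (-0.83) and to H2-D1 (-0.80). Among the genes with a mean CPM of at least 10 that are not in the group, those most like H2-K1 were a row with no symbol in RefSeq (r = 0.998), H2-Q9 and H2-Q8 (both 0.98), and those most like H2-Q6 were 2 rows with no symbol (0.998 and 0.97) and H2-Q8 (0.98). Most like Tap1 were Psmb9, Crybg1 and Rbl1 (each 0.99), most like Nlrc5 were Wsb2 (0.94), Utp14b (0.93) and Nbn (0.93), and most like B2m was Ticrr (0.85), followed by 2 rows with no symbol (each 0.80). These points share 3 conditions and 18 libraries, and the correlations are descriptions.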

How the data were processed

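The authors aligned single-end 50 base reads of polyA RNA to GRCm38 with GSNAP and deposited, for each of 18 libraries, the raw read counts over the exons of each Entrez gene, RPKM values and the gene width in bases. The counting program and annotation release are not given in the sources used here. The deposited RPKM were used only to check the order of levels, and the RPKM in the text were computed here from the deposited counts, the gene widths and TMM-scaled library sizes.

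Rows were named through RefSeq (89.1% of 28096 rows had a symbol). The main test was edgeR's quasi-likelihood test (edgeR 4.0.16, R 4.3.3) with TMM scaling, the filterByExpr filter (14161 genes), 6 group terms over all 18 libraries and Benjamini-Hochberg adjustment over all tested genes, at 0.05. Standard errors are the log2 fold change divided by the square root of F. Alternatives were RLE scaling, other filters on low counts, a replicate block, fits of only the groups compared, limma with voom (limma 3.58.1), DESeq2 1.42.0, leaving out each library in turn, summed H2-Q rows and, chosen after seeing the data, the sum without H2-Q8 and H2-Q9 and a fit without rows that have no RefSeq symbol. The main edgeR fit was tested on simulated counts with changes set between resting and anti-IgM WT cells. Python 3.11.15, pandas 2.3.3, numpy 2.4.6 and matplotlib 3.10.9 were used for summaries and plots.

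Groups came from the sample labels. Replicates without a number were taken as the remaining number, 1. The pairing check compared the deviations of same-numbered libraries from their group means. In 8 comparisons every pair correlated above 0.1, with pair correlations from 0.205 to 0.516, and the numbers were taken to pair the samples there. Between genotypes at rest the pair correlations ran from 0.0826 to 0.298, so not every pair passed that limit. The same numbers paired resting with stimulated cells within each genotype, and paired the genotypes with anti-IgM and with LPS. Through those groups they link the resting WT and Ubqln1-/- samples as well. The members and gene lists were chosen with earlier results of these data known. Named list genes were the 3 with the largest absolute log2 fold change per list and stimulus in WT cells among those called with a mean of at least 1 RPKM in the higher group, and the genes most alike were the 3 with the highest correlation among those with a mean of at least 10 CPM.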

Additional observations from a re-analysis of the deposited data

How the results depend on the processing

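The anti-IgM, LPS and LPS against anti-IgM counts of called genes stayed within 1.5 times under every alternative run, and the genotype counts did not. Between genotypes at rest, 0 genes of the group became 3 with the replicate block (H2-Q5, H2-Q6 and H2-Q7), 4 with DESeq2 and 0 to 2 on leaving out each library in turn, the 2 being H2-Q6 and H2-Q7 without Ubqln1-/- resting replicate 3. In that comparison the pair correlations ran from 0.0826 to 0.298, so the direct check of pairing did not pass. The replicate numbers linked the resting groups through the stimulated groups, as given above. With LPS, 0 became 3 with the block, where the numbers paired the samples, and 2 with DESeq2. The cause was not tested. Beyond these and the calls of Tapbp and B2m given in the text, the block changed no call of the group. Over all genes, calls between genotypes went from 8 to 49 (block) and 32 (DESeq2) at rest and from 6 to 125 and 51 with LPS, and without WT LPS replicate 2 to 37 with LPS.

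Values that changed sign were all near 0 and not called. B2m after anti-IgM in WT cells was -0.0016 with RLE scaling, -0.0068 with at least 10 counts in every library, -0.00051 with only the groups compared, -0.0017 with DESeq2 and -0.045 to 0.048 on leaving out a library. B2m after anti-IgM in Ubqln1-/- cells ranged from -0.088 to 0.016 on leaving out a library. H2-D1 after LPS in WT cells was -0.0043 with RLE scaling, -0.0099 with at least 10 counts, -0.0045 with DESeq2 and -0.033 to 0.047 on leaving out a library. On leaving out a library, Tap1 between genotypes with LPS ranged from -0.11 to 0.037, and the genotype difference in the LPS response from -0.052 to 0.033 for H2-K1 and from -0.0043 to 0.070 for H2-D1.

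With only the groups compared, edgeR no longer called H2-K1 (adjusted p = 0.0539) and B2m (0.0779) after LPS in WT cells, H2-Q7 (0.0508) after LPS in Ubqln1-/- cells, or B2m (0.1502) and Nlrc5 (0.0739) with LPS against anti-IgM in WT cells. With at least 10 counts in every library H2-Q7 after LPS in Ubqln1-/- cells was lost (0.0505), and with no filter beyond a total of 1 count B2m with LPS against anti-IgM in WT cells was (0.0554).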
